A study of Homo sapiens with 24 samples.

Results

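EGR1, EGR2, EGR3, IER2, IER3, IER5, PHLDA1 and KLF6 are 8 immediate early response genes, which were picked by symbol from the 60448 symbols of the expression tables. Their level was followed in 24 RNA-seq libraries from BPH-1 and RWPE-1, both immortalized lines of human prostate epithelium. All 8 are protein-coding genes and all 8 passed the low count filter in every comparison. BPH-1 derives from a benign hyperplastic prostate and was immortalized with SV40 large T antigen, and RWPE-1 derives from normal prostate epithelium and was immortalized with a papillomavirus. Per the labels, BPH-1 was kept in medium with 10% serum, whereas RWPE-1 was kept without serum in keratinocyte medium with 5 ng/mL EGF and 0.05 mg/mL bovine pituitary extract.

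Each line was profiled with an empty vector, as parental cells that overexpress wild-type C-Raf, and as lines derived from their metastases. These stages had 3, 3 and 6 libraries in BPH-1 and 1, 4 and 7 in RWPE-1. The metastasis-derived lines were grown in culture from tumors resected from NOD-scid gamma mice after injection of the C-Raf cells into the heart. Every C-Raf and metastasis-derived library therefore carries ectopic C-Raf, and the labels do not say whether libraries of cultured cells came from separate cultures, so p-values measure the spread between these libraries, which may be technical. By label, the RWPE-1 metastasis-derived lines came from lymph node, spine and bone, and they were pooled here. Their lymph node lines were deposited with the vector control, their bone lines in another table and their spine lines in both. The BPH-1 lines were from bone, apart from the pair numbered R075. For that pair the title and the treatment label name different sites, and they are called here by their titles.

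Immediate early genes are transcribed within minutes of growth factor or stress signals, from factors already present in the cell, and most of their transcripts are short-lived. The ERK kinases, which act below Raf and MEK, phosphorylate ternary complex factors such as ELK1, which bind next to serum response factor at CArG boxes. EGR1, EGR2 and EGR3 are zinc finger transcription factors that bind GC-rich sites. IER2, IER3 and IER5 are small early response proteins, of which IER3 acts in cell survival and ERK signaling, and IER5 in the heat shock response. PHLDA1 is a pleckstrin homology-like domain protein that responds to ERK signaling, and KLF6 is a Krüppel-like zinc finger factor.

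The promoters of EGR1 and EGR2 are shown because both genes fell in BPH-1 C-Raf cells and both windows hold the CArG box described above. RefSeq windows were found for 6 of the 8 genes, all but EGR3 and IER3. The 250 bases before each listed start were searched on both strands for the CArG box, for TGACGT, for GGGCGG and for GCGGGGGCG, of which the last 2 can overlap. CArG boxes, in capitals, are printed on the gene's strand of GRCh38.p14. The EGR1 window is chr5:138465229-138465478 on the plus strand. The EGR2 window is chr10:62816367-62816616 on the minus strand, before the one of its 3 listed starts that holds a CArG box. Neither window overlaps an exon of GENCODE 29.
EGR1: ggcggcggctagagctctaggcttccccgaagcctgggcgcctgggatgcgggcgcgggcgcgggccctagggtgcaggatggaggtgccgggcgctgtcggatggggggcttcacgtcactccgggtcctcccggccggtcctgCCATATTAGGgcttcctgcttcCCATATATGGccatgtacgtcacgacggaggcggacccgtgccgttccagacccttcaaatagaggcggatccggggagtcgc
EGR2: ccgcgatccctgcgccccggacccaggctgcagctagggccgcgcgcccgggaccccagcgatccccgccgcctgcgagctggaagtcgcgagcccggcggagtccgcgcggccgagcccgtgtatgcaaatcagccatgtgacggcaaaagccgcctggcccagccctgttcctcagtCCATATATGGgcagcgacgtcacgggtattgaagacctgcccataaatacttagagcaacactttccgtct
The EGR1 window holds 2 CArG boxes, which begin 105 and 83 bases before the start, and 2 matches to TGACGT. The EGR2 window holds the same CCATATATGG sequence 71 bases before the start and 1 match to TGACGT. A CArG box was found in 1.16% and TGACGT in 7.10% of all 35116 promoter windows of this length. The windows of IER2, IER5, KLF6 and PHLDA1 and the other 2 EGR2 windows hold neither. IER2 and KLF6 fell in BPH-1 C-Raf cells as well, and a link of the motifs to the changes was not tested. GGGCGG, found in 42.6% of all windows, occurs 2 times in KLF6, 3 times in IER2, 1 time in PHLDA1 and 2 and 4 times in the other EGR2 windows, and GCGGGGGCG, found in 4.72%, occurs 1 time in KLF6.

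Levels are given as CPM, the count of a gene set relative to the scaled protein-coding total of its library. The 21 libraries of full depth held 20576285 to 42022869 protein-coding counts. Bone lines R071 and R074 and the line titled bone R075 of BPH-1 held 111188 to 465022, since the signal recognition particle RNA gene RN7SL1 took 93.3% to 97.5% of all their counts. In those 3 libraries no member exceeded 54 counts and 4 of the 24 values were 0, and a count of 3, the limit that a count of 0 allows, is worth 12.7, 25.7 and 59.2 CPM. They were therefore left out of the tests and entered as an alternative. Epithelial markers were present in every group of the full-depth libraries, with KRT5 at 695.7 CPM or more and TP63 at 145.5 CPM or more. The luminal prostate marker KLK3 was at 0 in all of them. The blood cell marker PTPRC was at 0.692 CPM or less.

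Per kilobase of merged exons and averaged over the 21 libraries, IER3 and EGR1 had the highest levels, 140.1 and 125.3 CPM per kb. IER2 followed at 44.1, IER5 at 31.1, PHLDA1 at 29.7 and KLF6 at 27.7 CPM per kb. EGR3 and EGR2 were low, at 1.78 and 0.532 CPM per kb. The level of EGR3 varied most between libraries, by 214.9-fold between the lowest and the highest, and that of IER5 least, by 3.82-fold. The library titled thymus R075 had the highest level of EGR1, EGR2, EGR3, IER3, IER5 and KLF6.

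**Figure D1:**
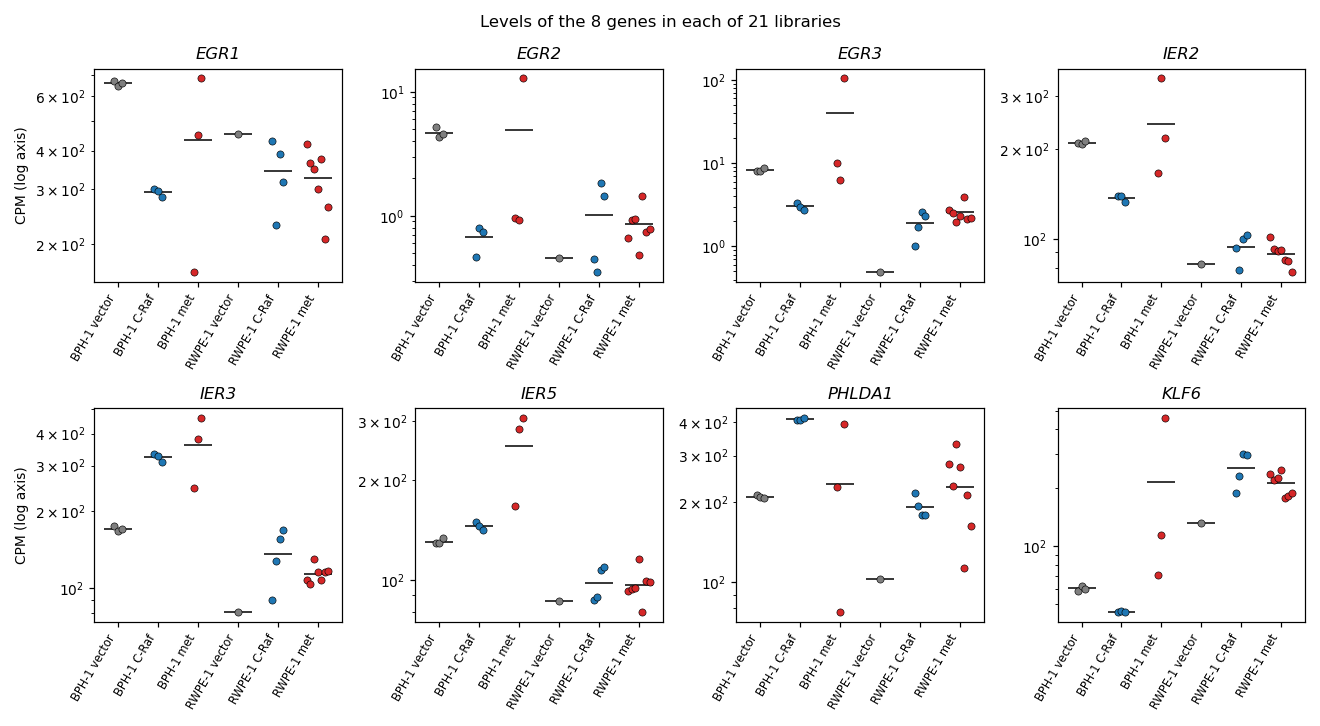
CPM of each gene on a log axis in the 21 libraries of full depth, by cell line and stage. Each point is 1 library and each bar is the group mean. In BPH-1 the vector control libraries and the C-Raf libraries lie in separate, tight groups for all 8 genes, and the 3 BPH-1 metastasis-derived lines spread widely.

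To ask how C-Raf overexpression changed these genes before any passage through mice, C-Raf parental cells were compared with vector control in BPH-1. The EGR genes, IER2 and KLF6 fell, whereas PHLDA1, IER3 and IER5 rose. All 8 genes passed the edgeR quasi-likelihood test at an adjusted p below 0.05, and no gene's groups overlapped. The libraries of each group were very alike, with a biological coefficient of variation of 2.43%, so this comparison called 59.8% of the 13240 genes tested, 30.4% higher and 29.4% lower. The groups did not overlap for 63.2% of all genes. The count of 8 is to be read against those shares. In bulk RNA, fewer cells with a transcript and less of it per cell cannot be told apart. The absolute log2 fold changes of EGR2, EGR3 and EGR1 were at the 99.3, 96.5 and 94.7 percentile of all genes tested, and that of IER5 was at the 45.8 percentile.

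EGR1 (chromosome 5, 138465490 to 138469315 in GRCh38), the best known early sensor of growth factor signals in the group, was measured at 671.8, 643.9 and 661.2 CPM in the 3 vector control libraries. In the C-Raf parental libraries it was at 300.1, 295.6 and 284.2 CPM. Each C-Raf library was below every vector control, and EGR1 was 2.25-fold lower (log2 fold change -1.17, SE 0.03, edgeR adjusted p = 8.44e-24). EGR2 (chromosome 10, 62811996 to 62919900), best known for its role in myelination, stood at 5.18, 4.31 and 4.56 CPM in vector control and at 0.467, 0.800 and 0.739 CPM in C-Raf cells. These CPM rest on 131 to 187 reads in vector control and on 14 to 24 reads in C-Raf cells. EGR2 was 7.01-fold lower, the largest change of the 8 (log2 fold change -2.81, SE 0.18, edgeR adjusted p = 1.02e-13). EGR3 (chromosome 8, 22687659 to 22693302), a close relative of both, stood at 8.11, 8.15 and 8.74 CPM in vector control. It stood at 3.33, 3.001 and 2.77 CPM in C-Raf cells and was 2.74-fold lower (log2 fold change -1.45, SE 0.10, edgeR adjusted p = 9.68e-13). All 3 EGR genes thus fell, the low-expressed EGR2 and EGR3 by more than EGR1.

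IER2 (chromosome 19, 13150415 to 13154908) was at 208.5, 206.8 and 212.0 CPM in vector control and at 139.2, 138.6 and 132.6 CPM in C-Raf cells. It was 1.53-fold lower in the C-Raf cells (log2 fold change -0.61, SE 0.03, edgeR adjusted p = 8.36e-17). KLF6 (chromosome 10, 3775996 to 3785281), which has been described as a tumor suppressor of the prostate, was at 58.8, 62.4 and 60.2 CPM in vector control and at 45.4, 45.9 and 45.7 CPM in C-Raf cells. Its fall was 1.32-fold (log2 fold change -0.40, SE 0.04, edgeR adjusted p = 2.32e-10). Both changes were small but several times the spread of the libraries.

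PHLDA1 (chromosome 12, 76025447 to 76033932) moved the other way. It was at 213.7, 209.0 and 206.9 CPM in vector control and at 409.7, 409.4 and 414.6 CPM in C-Raf cells, 1.96-fold higher (log2 fold change 0.97, SE 0.03, edgeR adjusted p = 2.01e-22). IER3 (chromosome 6, 30743199 to 30744554) rose by nearly as much, from 174.8, 167.2 and 169.7 CPM to 333.4, 326.2 and 311.0 CPM, and was 1.90-fold higher (log2 fold change 0.92, SE 0.03, edgeR adjusted p = 8.44e-21). IER5 (chromosome 1, 181088712 to 181092899) rose by the least, from 129.3, 129.0 and 133.4 CPM to 148.9, 145.0 and 141.4 CPM (log2 fold change 0.15, SE 0.03, edgeR adjusted p = 6.53e-05). All 8 calls remained when any 1 of the 6 libraries was left out.

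In BPH-1 most ERK output genes rose, and more of the other immediate early genes fell than rose. Of all genes tested between C-Raf and vector control cells, 30.4% were called higher and 29.4% lower. Of 14 ERK output and feedback genes, 13 rose and 1 fell, with a median log2 fold change of 0.88 against -0.002 over all genes. The largest rises were SPRY4 (1.91), SPRY1 (1.85) and DUSP6 (1.70), which encode inhibitors of receptor and ERK signaling. The one that fell was the ephrin receptor gene EPHA4 (-2.07). Of 33 other immediate early genes, 10 rose and 18 fell, with a median log2 fold change of -0.23. The largest falls were CTGF (-2.42), a matrix-associated growth factor gene, the nuclear receptor gene NR4A1 (-1.89) and the stress response factor ATF3 (-1.81). The largest rises were HBEGF (1.57), an EGF receptor ligand, the urokinase receptor gene PLAUR (1.36) and TRIB1 (0.51).

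Among 9 regulators of the EGR genes, 3 rose and 2 fell, against 30.4% and 29.4% of all genes. ELK3 (0.90) and ELK4 (0.26), ternary complex factors, and NAB1 (0.19), a corepressor of EGR proteins, rose, whereas MKL1 (-0.68) and MKL2 (-0.32), myocardin-related partners of serum response factor, fell. Of 9 other KLF and PHLDA family genes, 6 rose and 2 fell, led by PHLDA2 (0.71), KLF5 (0.56) and KLF7 (0.45) and by KLF9 (-1.37) and PHLDA3 (-0.30). Of 9 heat shock genes, 7 rose and 1 fell, with changes of at most 0.79 in HSPA6, and their summed level was 5003.7 to 5289.7 CPM in vector control and 6189.2 to 6233.7 CPM in C-Raf cells. Stress or handling of the cultures was not tested as a part of the changes.

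**Figure D2:**
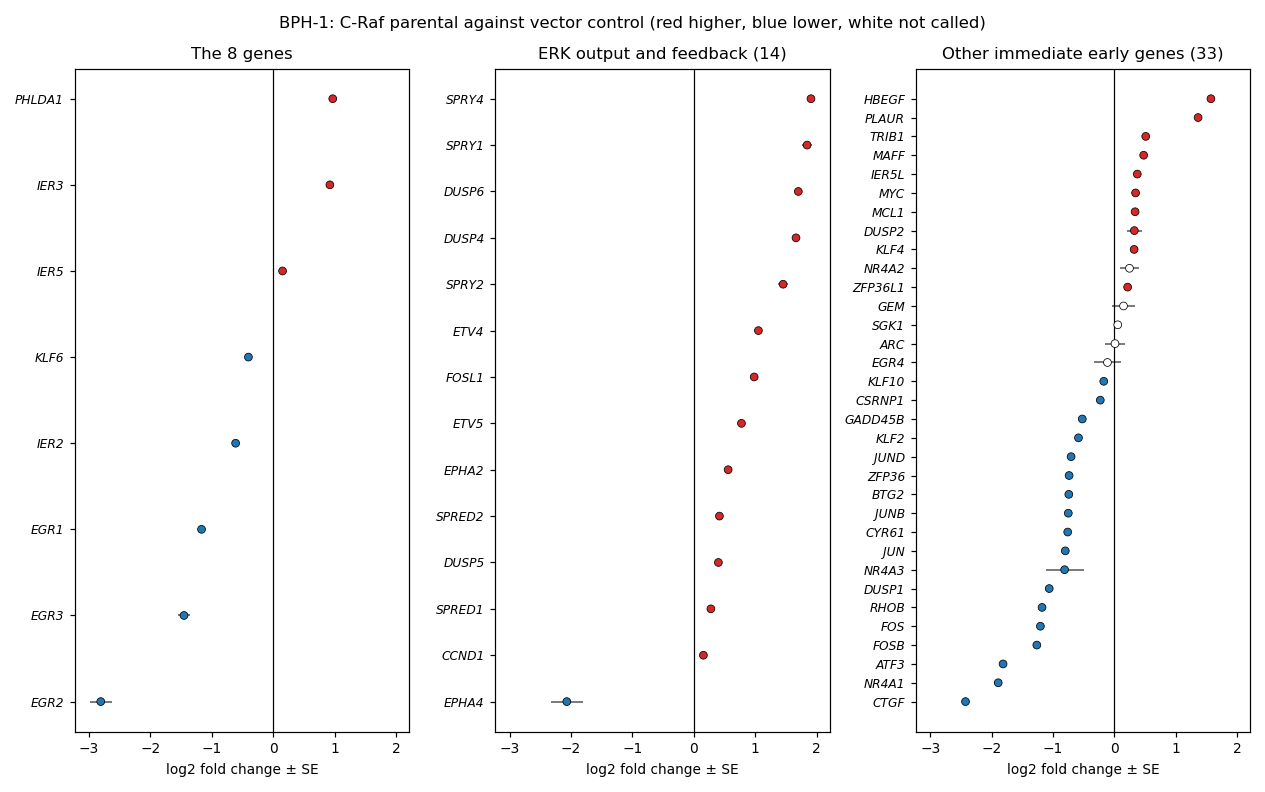
Log2 fold change of BPH-1 C-Raf parental cells over vector control (x axis), with SE as bars, for the 8 genes, 14 ERK output and feedback genes and 33 other immediate early genes (y axis). Red points passed the test and were higher, blue points passed and were lower, and white points did not pass. Of the ERK output genes 13 lie to the right of 0, and of the other immediate early genes 18 are blue.

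In RWPE-1 there was 1 vector control library, so the levels are given without a test. PHLDA1 was at 103.2 CPM in the vector control and at 217.2, 193.7, 178.5 and 178.8 CPM in the C-Raf parental libraries. KLF6 was at 131.4 CPM in vector control and at 188.7, 230.1, 298.0 and 296.1 CPM in C-Raf cells. EGR3 was at 0.487 CPM (16 reads) in vector control and at 1.02, 1.72, 2.62 and 2.34 CPM (34 to 93 reads) in C-Raf cells. All 4 C-Raf libraries were above the vector control for these 3 genes, and also for IER3 (80.6 CPM against 90.0 to 169.2 CPM) and IER5 (86.5 CPM against 87.0 to 109.3 CPM). All 4 were below it for EGR1, at 453.6 CPM in vector control and 431.0, 230.1, 391.0 and 317.8 CPM in C-Raf cells. EGR2 (0.456 CPM against 0.349 to 1.83 CPM) and IER2 (82.4 CPM against 78.7 to 102.9 CPM) lay on both sides. The share of all genes with a vector control outside the C-Raf range was not counted, so these positions describe levels only.

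The RWPE-1 vector control was deposited in the same table as the first C-Raf library, and the other 3 C-Raf libraries were in another table. Against that first library alone, the log2 CPM differences were 1.07 for PHLDA1, 0.97 for EGR3 and 0.52 for KLF6, but 0.16 for IER3, 0.007 for IER5 and -0.07 for EGR1. For IER3, IER5 and EGR1 the libraries of the other table lay farther from the vector control, and table and library cannot be told apart here.

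KLF6 and EGR3 thus fell in BPH-1 with C-Raf, whereas all 4 RWPE-1 C-Raf libraries were above the lone vector control for both. On the log2 CPM scale, with a prior count of 2, the mean difference from vector control was -0.40 in BPH-1 and 0.92 in RWPE-1 for KLF6, and -1.44 and 1.76 for EGR3. Whether the change differed between the cell lines was not tested, since RWPE-1 had 1 vector control.

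**Figure D3:**
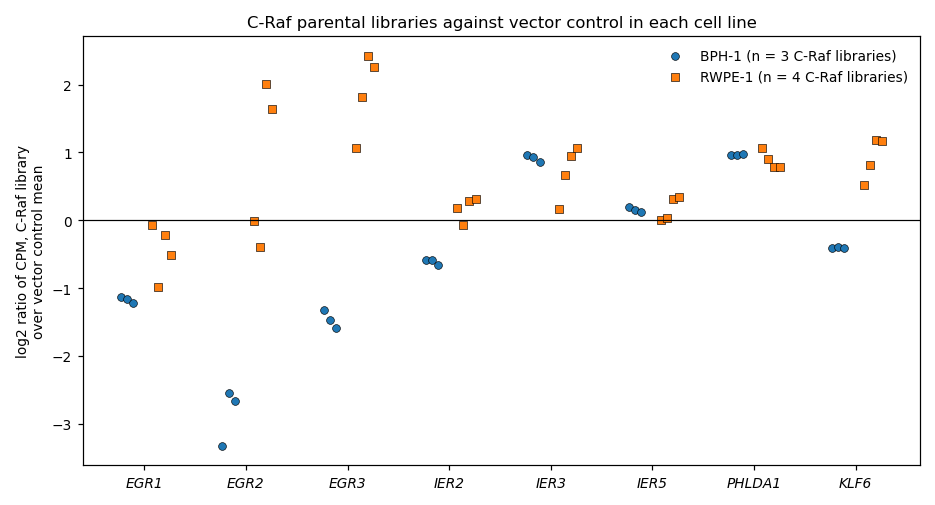
Log2 ratio of CPM in each C-Raf parental library over the vector control mean of its cell line (y axis) for the 8 genes (x axis). Circles are the 3 BPH-1 libraries and squares the 4 RWPE-1 libraries, which are set against 1 vector control. KLF6 and EGR3 lie below 0 in BPH-1 and above 0 in RWPE-1, and PHLDA1 and IER3 lie above 0 in both.

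The C-Raf parental cells of the 2 cell lines also differed in level, in a comparison that called 74% of 13540 genes, 38% higher and 36% lower in RWPE-1. The groups did not overlap for 76.5% of all genes. KLF6 was 5.57-fold higher in RWPE-1, 253.2 ± 53.4 (SD, n = 4) against 45.7 ± 0.247 CPM (SD, n = 3, log2 difference 2.48, SE 0.18, edgeR adjusted p = 1.02e-05). PHLDA1 was 2.13-fold (edgeR adjusted p = 1.27e-05), IER3 2.37-fold (0.000728), IER2 1.45-fold (0.00126) and IER5 1.47-fold (0.00121) lower in RWPE-1. The EGR genes did not pass, with log2 differences of 0.23 for EGR1 (SE 0.19), 0.61 for EGR2 (SE 0.62) and -0.65 for EGR3 (SE 0.31). This rested on single libraries, since EGR1 passed without C-Raf library 2 of RWPE-1 (0.37, edgeR adjusted p = 0.0292) and EGR3 without C-Raf library 3 (-0.83, edgeR adjusted p = 0.0488). The cell lines were grown in different media and deposited in different tables, which cannot be told apart from the cell line.

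Metastasis-derived lines were compared with C-Raf parental cells to ask whether these genes changed further in cells recovered from tumors. In BPH-1, EGR3, KLF6 and IER5 rose in the 3 full-depth lines, and the 3 lines differed strongly from each other. The comparison called 37.7% of 13462 genes, 20.9% higher and 16.8% lower, and the biological coefficient of variation was 35.3%. The groups did not overlap for 6 of the 8 genes, against 59.7% of all genes. EGR2, EGR3, IER2, IER5 and KLF6 were higher and PHLDA1 lower in each of the 3 lines than in every C-Raf parental library.

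EGR3 was at 10.1 CPM in bone line R069, at 6.28 CPM in bone line R072 and at 104.6 CPM in the line titled thymus R075, against 2.77 to 3.33 CPM in C-Raf parental cells. The thymus-titled line held 2737 EGR3 reads and was 34.5-fold above the parental mean. The log2 fold change was 3.77 (SE 1.11, edgeR adjusted p = 0.0392). KLF6 was also highest in the thymus-titled line, with 457.3 CPM in the thymus-titled line, 113.5 CPM in R072 and 71.1 CPM in R069, against 45.4 to 45.9 CPM (log2 fold change 2.27, SE 0.69, edgeR adjusted p = 0.0420). IER5 was at 166.9, 284.3 and 306.0 CPM in R069, R072 and the thymus-titled line, against 141.4 to 148.9 CPM (log2 fold change 0.85, SE 0.27, edgeR adjusted p = 0.0455). All 3 calls were close to the threshold. Without the thymus-titled line EGR3 (log2 fold change 1.498, edgeR adjusted p = 0.00880) and KLF6 (1.08, edgeR adjusted p = 0.0151) passed with smaller changes, and IER5 (0.70, edgeR adjusted p = 0.0715) did not. With edgeR 0 of the 8 genes passed when any 1 C-Raf parental library was left out, and EGR1, IER2, EGR3, KLF6 and IER5 passed without R069. Without R072, EGR2 (3.37, edgeR adjusted p = 0.0397) and IER2 (0.51, edgeR adjusted p = 0.0178) passed beside EGR3 and KLF6, and IER5 did not (edgeR adjusted p = 0.0517). With the 3 low-depth libraries included, KLF6 (1.66, edgeR adjusted p = 0.140) and IER5 (0.68, edgeR adjusted p = 0.480) did not pass, and EGR2 did (2.84, edgeR adjusted p = 0.0490). The IER5 call was also lost without a filter on low counts (0.78, edgeR adjusted p = 0.0641) and with all genes of the tables (0.73, edgeR adjusted p = 0.0698).

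With all 3 full-depth lines, the other 5 genes did not pass. EGR2 was at 0.953 and 0.921 CPM in R069 and R072, close to the parental 0.467 to 0.800 CPM, and at 12.8 CPM (336 reads) in the thymus-titled line, 19.2-fold above the parental mean (log2 fold change 2.92, SE 1.12, edgeR adjusted p = 0.0826). EGR1 was at 161.7 CPM in R069, below all parental libraries, and at 450.5 and 684.3 CPM in R072 and the thymus-titled line, above them (log2 fold change 0.61, SE 0.48). IER3 likewise lay on both sides of the parental range, at 245.7, 381.6 and 459.2 CPM. IER2 was at 166.0, 344.3 and 216.7 CPM (log2 fold change 0.88, SE 0.30, edgeR adjusted p = 0.0607, and 0.0214 with DESeq2). PHLDA1 was at 229.2, 77.1 and 394.1 CPM, 0.188 times the parental mean in R072 and 0.958 times in the thymus-titled line (log2 fold change -0.78, SE 0.52, edgeR adjusted p = 0.277). The lowest PHLDA1 level and the highest EGR and KLF6 levels were thus in different lines.

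**Figure D4:**
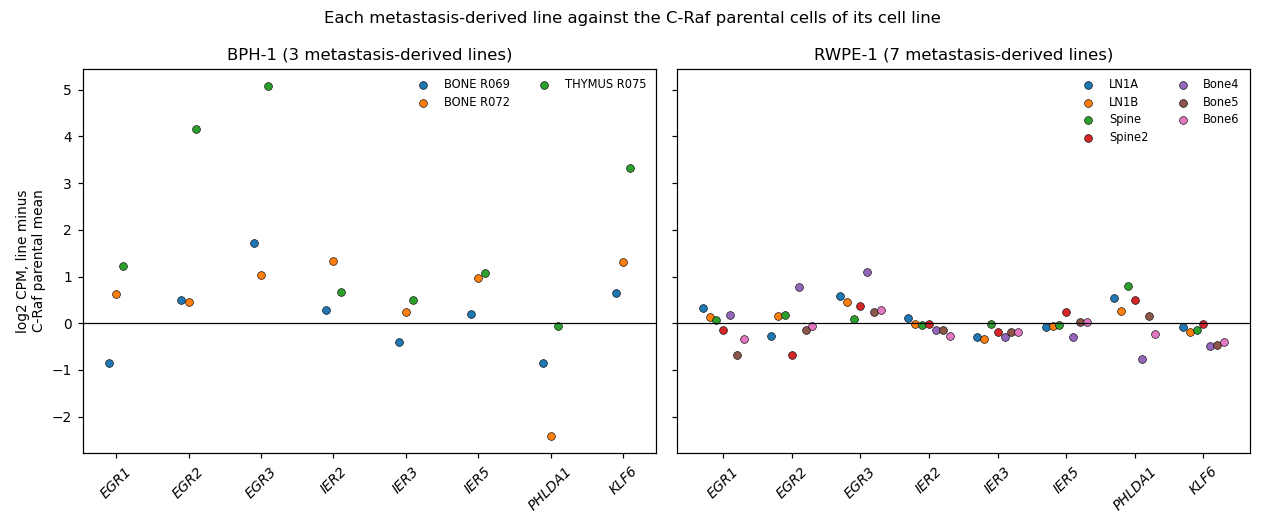
Log2 CPM, with a prior count of 2, of each metastasis-derived line minus the mean of the C-Raf parental libraries of its cell line (y axis) for the 8 genes (x axis). Each point is 1 line, with colors naming the line. The thymus-titled BPH-1 line lies at 5.08 for EGR3, 4.16 for EGR2 and 3.32 for KLF6, whereas the RWPE-1 lines lie between -0.76 for PHLDA1 and 1.10 for EGR3, both in Bone4.

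Several other measures moved with the BPH-1 metastasis-derived libraries. RN7SL1 took 13.1% of all counts in R069, 30.3% in R072 and 4.6% in the thymus-titled line, and at most 0.00932% in the BPH-1 cultured libraries. KRT8 was at 84.5 to 194.7 CPM against 978.3 to 1004.4 CPM in the parental libraries, and KRT18 at 92.2 to 168.2 against 900.2 to 912.8 CPM. Of the 6 epithelial markers, 3 were lower, these keratins and EPCAM (21.9 to 97.3 against 208.8 to 213.8 CPM), and 1 was higher, the basal keratin KRT5 (3900.5 to 5253.6 against 2882.9 to 2930.3 CPM, edgeR adjusted p = 0.0439). TP63 was at 210.8 to 362.0 against 199.2 to 206.2 CPM and CDH1 at 314.6 to 502.6 against 341.0 to 345.9 CPM, and neither passed. The summed level of the 6 was 4926.4 to 6578.4 against 5524.5 to 5613.4 CPM. The luminal protease gene TMPRSS2 was higher, at 1.80 to 37.3 against 0.0667 to 0.200 CPM (log2 fold change 6.76, edgeR adjusted p = 0.0130). The summed level of 6 stromal markers was 52.1 to 73.0 CPM against 12.1 to 12.4 CPM, nearly all of it COL1A1. The summed level of 6 blood cell markers was 1.42 to 2.22 against 2.59 to 2.73 CPM. Summed heat shock gene levels ranged from 2491.2 to 7959.8 CPM, on both sides of the parental 6189.2 to 6233.7 CPM. Their part in the changes of the 8 genes was not tested. All metastasis-derived BPH-1 libraries were deposited in a table of their own and have titles without sGluc. Table, title and stage therefore cannot be told apart.

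Of the 33 other immediate early genes, 7 were higher and 3 lower in the BPH-1 metastasis-derived lines, with a median log2 fold change of 1.49 against 0.07 over all genes. The comparison called 20.9% of all genes higher and 16.8% lower, and the counts of this paragraph are to be read against those shares. The largest rises were the phosphatase gene DUSP1 (2.62), KLF4 (2.58) and GADD45B (2.15), and the falls were CTGF (-3.63), IER5L (-1.56) and DUSP2 (-1.19). These counts moved with the libraries and the tool. They were 10 higher and 7 lower without the thymus-titled line, where the median was 0.36, 12 and 2 without R072, 13 and 0 without R069, 2 and 1 with the low-depth libraries included, and 15 and 4 with DESeq2. In the same order, these fits called 3774, 4284, 2315, 1285 and 3580 of all genes higher. They called 3129, 4033, 1667, 814 and 2740 lower, of 13462 to 13741 genes tested. Of the 9 other KLF and PHLDA family genes, 7 were higher and 2 lower, led by KLF9 (3.13), KLF11 (2.15) and KLF13 (1.96) and by PHLDA2 (-1.40) and KLF16 (-0.85), and with the low-depth libraries included the counts were 2 and 0. Among the regulators, 3 were higher, NAB2 (1.48), ELK4 (1.34) and MKL2 (1.17), and 2 were lower, ELK1 (-0.83) and SRF (-0.79), which encodes serum response factor itself. Of the 14 ERK output and feedback genes, 1 was higher, EPHA4 (5.23), and 3 were lower, the cyclin gene CCND1 (-1.54) and the ETS factor genes ETV5 (-1.32) and ETV4 (-0.80). Without the thymus-titled line 6 ERK output genes were lower, in a fit that called 6903 of 13741 genes, 3129 of them lower. Of the 9 heat shock genes 0 passed the edgeR test, 2 had an unadjusted p below 0.05, and 2 were lower with DESeq2. Without the thymus-titled line 4 heat shock genes were lower with edgeR, with a median log2 fold change of -0.76.

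In RWPE-1, 0 of the 8 genes passed the edgeR test between the 7 metastasis-derived lines and the 4 C-Raf parental libraries, 0 had an unadjusted p below 0.05 and 0 passed with DESeq2. Their groups overlapped for all 8 genes, and this comparison called 0.0985% of 13197 genes, 0.0758% higher and 0.0227% lower. The groups did not overlap for 1.7% of all genes. EGR3 had a lowest, median and highest level of 1.94, 2.35 and 3.96 CPM in the metastasis-derived lines, against 1.02 to 2.62 CPM in the parental libraries. KLF6 was at 176.9, 218.5 and 246.3 CPM against 188.7 to 298.0 CPM, and IER3 at 103.8, 115.7 and 130.3 CPM against 90.0 to 169.2 CPM. PHLDA1 had the widest span of the highly expressed genes, at 112.9, 230.2 and 330.7 CPM against 178.5 to 217.2 CPM. It was above the parental range in the lymph node and spine lines, within it in Bone5 and below it in Bone4 and Bone6. KLF6 was below its parental range in the bone lines and within it in the lymph node and spine lines. Differences between sites were not tested.

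The largest log2 fold changes in RWPE-1 were 0.41 for EGR3 (SE 0.27), -0.27 for KLF6 (SE 0.14), 0.25 for PHLDA1 (SE 0.24), -0.25 for IER3 (SE 0.14) and -0.25 for EGR2 (SE 0.45). Those of EGR1, IER2 and IER5 were -0.07, -0.07 and -0.02. The edgeR unadjusted p was 0.0808 or more for each gene. None passed with a term for the deposited table or within the table that holds 3 parental libraries and 4 lines. Of the 33 other immediate early, 9 regulator, 14 ERK output, 9 KLF and PHLDA and 9 heat shock genes, 0 passed with edgeR or DESeq2, and 2, 1, 1, 1 and 0 had an edgeR unadjusted p below 0.05.

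The metastasis effect differed between the cell lines for 5 genes, in a comparison that called 44.5% of 14279 genes, 21% with a higher and 23.5% with a lower effect in RWPE-1. It used 1 spread per gene for groups of unlike spread. For KLF6 its SE was 0.56, against 0.69 in the BPH-1 comparison alone. EGR2 and IER2 had not passed within BPH-1. There the metastasis-derived libraries were in a table of their own and held more RN7SL1, which cannot be told apart from the effect. The difference, RWPE-1 minus BPH-1 on the log2 scale, was -2.50 for KLF6 (SE 0.56, edgeR adjusted p = 0.00200), -0.90 for IER2 (SE 0.24, edgeR adjusted p = 0.00677) and -0.83 for IER5 (SE 0.23, edgeR adjusted p = 0.00913). It was -3.33 for EGR3 (SE 0.90, edgeR adjusted p = 0.00696) and -3.14 for EGR2 (SE 1.05, edgeR adjusted p = 0.0232). Without the thymus-titled line the difference was -1.04 for EGR3 (edgeR adjusted p = 0.0633) and -0.75 for EGR2 (edgeR adjusted p = 0.430), and neither passed, whereas PHLDA1 passed in the other direction (1.67, edgeR adjusted p = 0.0108). Without R069, EGR1 (-1.04, edgeR adjusted p = 0.0234) and IER3 (-0.65, edgeR adjusted p = 0.0419) passed as well. The EGR2 call was also lost without C-Raf library 3 of RWPE-1 (-2.69) or C-Raf library 1 of BPH-1 (-2.93). KLF6 passed in all 22 alternatives, with -1.29 as its smallest difference when a library was left out. IER2 and IER5 passed when any 1 library was left out, but not with the 3 libraries of low depth included.

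When both cell lines were fitted together, C-Raf overexpression changed 0.813% of 15245 genes, 0.42% higher and 0.394% lower. IER3 was the one member among them, 1.89-fold higher (log2 fold change 0.92, SE 0.18, edgeR adjusted p = 0.0158). The call was lost when any 1 BPH-1 vector control was left out. Between metastasis-derived and C-Raf parental cells 2.51% of genes were called, 1.76% higher and 0.748% lower. Of the 8 genes 0 passed with edgeR or DESeq2 and 1 had an edgeR unadjusted p below 0.05, with log2 fold changes from -0.13 for PHLDA1 to 1.46 for EGR3 (edgeR adjusted p = 0.134).

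Across the 21 libraries, the 8 genes did not rise and fall as a block. The Spearman correlation of log2 CPM was 0.92 between IER3 and IER5, 0.83 between EGR3 and IER2 and 0.82 between IER2 and IER5, but 0.03 between EGR1 and IER3, -0.21 between EGR1 and PHLDA1 and -0.37 between IER3 and KLF6. Of 12626 genes with a mean of at least 1 CPM, the pattern of EGR1 was most like those of FOXC1 (0.81), FOS (0.73) and MAPRE3 (0.73). IER3 was most like GOLGA7B (0.96), MAFF (0.95) and NFKBIZ (0.95), and IER5 most like MAFF (0.97), ZBED2 (0.96) and PAX8 (0.96). For the others the closest gene was LBH for EGR2 (0.83), KDELC2 for EGR3 (0.94), NDEL1 for IER2 (0.94), TNFRSF10A for PHLDA1 (0.90) and LIMA1 for KLF6 (0.95). These points share cell line, stage and deposited table. Within the 11 C-Raf libraries of RWPE-1, IER3 and IER5 correlated at 0.56, EGR3 and IER2 at 0.34 and IER2 and IER5 at 0.21. The value was of the other sign there for IER3 and KLF6 (0.49), EGR1 and PHLDA1 (0.15) and EGR1 and IER3 (-0.43).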

How the data were processed

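RNA was sequenced in 24 libraries. The authors deposited 4 tables, made with their TOIL pipeline, whose values are RSEM expected counts per gene symbol, without batch adjustment or filter. The submitters' processing notes name cutadapt, FastQC, STAR, RSEM and hg38, and the annotation is not given in the sources used here. Of 60448 symbols, 36628 were found in GENCODE 29 and 930 under another name, and 19235 were protein-coding.

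Expected counts were rounded, filtered with filterByExpr, scaled by TMM and tested with edgeR 4.0.16 quasi-likelihood fits (R 4.3.3, adjusted p below 0.05) over all protein-coding genes. Groups came from the labels. Within a cell line, the biological coefficient of variation of the metastasis comparison was 35.3% in BPH-1 and 23.7% in RWPE-1. There, at 20576285 or more protein-coding counts, levels above a few CPM are limited mainly by differences between libraries. Between BPH-1 C-Raf and vector control cells that coefficient was 2.43%, so counting limits the low-expressed EGR2 and EGR3 as well. The 3 low-depth libraries are also limited by counting. Alternatives were DESeq2 1.42.0 (one after ComBat-seq, sva 3.50.0), RLE, no filter, all genes, table terms, a replicate block and leaving out each library. The tests were checked on simulated counts. The members and lists were chosen with earlier results of these data known. Of each list, at most the 3 largest called changes per direction are named, and per gene the 3 or 1 most similar genes. Some genes are not reported here.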

Additional observations from a re-analysis of the deposited data

Results flagged for a closer look

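Among 24 sets of 1 gene in 1 group of at least 4 libraries, 3 held a library far from the others by Dixon's criterion, which chance meets in about 1 of 20 sets. In the 6 BPH-1 metastasis-derived libraries, the line titled thymus R075 was far above the rest for EGR3 and KLF6. EGR3 was at 104.6 CPM against 25.7 CPM in the next, a low-depth library with 3 EGR3 reads. KLF6 was at 457.3 CPM against 118.4 CPM in the next, another low-depth library with 6 KLF6 reads. In the 7 RWPE-1 lines, Bone4 was highest for EGR3 (3.96 CPM, 176 reads, against 2.74 CPM).

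By the interaction term, with the limits given above, the effect of metastasis differed between the cell lines for EGR2 (-3.14), EGR3 (-3.33), IER2 (-0.90), IER5 (-0.83) and KLF6 (-2.50). These are log2 values, RWPE-1 minus BPH-1. With C-Raf, all 3 BPH-1 libraries were below their vector control mean and all 4 RWPE-1 libraries above their lone vector control for EGR3 (log2 CPM difference -1.44 in BPH-1 and 1.76 in RWPE-1) and KLF6 (-0.40 and 0.92). That difference was not tested.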

How the results depend on the processing

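The 8 calls between BPH-1 C-Raf and vector control cells kept their direction and passed under DESeq2, RLE, no filter, all genes and each left-out library (7290 to 7643 of all genes called). With a replicate block all 8 passed again and 7686 genes were called. Libraries of the same number correlated at 0.018, -0.112 and -0.021 in their deviations, and those of unlike number at -0.087 to 0.108. No pairing by number was seen, but 3 libraries per group cannot exclude one. The block changed none of the 8 calls.

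Including the 3 low-depth libraries gave 2099 instead of 5078 called genes in the BPH-1 metastasis comparison, 37 instead of 124 and 0 of 8 members in the pooled C-Raf comparison, and 4177 instead of 6357 and 3 of 8 members for the difference in metastasis effect. It turned EGR1 (-0.20) and IER3 (-0.50) in BPH-1, EGR1 in the pooled metastasis comparison (-0.075) and the difference for IER3 (0.065), none of which passed, and it ended the KLF6 and IER5 calls in BPH-1. Whether depth or another difference of those libraries brought these changes was not tested. DESeq2 called 173 genes instead of 13 in RWPE-1 and 458 and 946 in the pooled C-Raf and metastasis comparisons. All genes of the tables gave 20 in RWPE-1 and 1781 instead of 383 in the pooled metastasis comparison. The RWPE-1 table without the vector control gave 2. ComBat-seq followed by DESeq2 turned PHLDA1 in the pooled metastasis comparison (0.012). Of the pooled C-Raf calls, 51.6% were higher with edgeR, 60.9% with DESeq2 and 73.3% with ComBat-seq followed by DESeq2. The table term turned IER5 in RWPE-1 (0.000756). The cause of these changes was not tested.

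Leaving out 1 library gave 1957 to 2094 called genes and 0 members for each C-Raf library and up to 8317 genes and 5 members for the lines in BPH-1, 4 to 40 genes in RWPE-1 (40 without Bone4), 38 to 287 genes and 0 to 1 members in the pooled C-Raf comparison, 98 to 479 genes in the pooled metastasis comparison, and 5510 to 7516 genes and 4 to 7 members for the difference in metastasis effect. Between the cell lines 5 members passed, and 5 to 6 when a library was left out. Small changes in RWPE-1 turned: EGR1 without C-Raf library 1 (0.058) or Bone5 (0.014; range from -0.22), EGR2 without C-Raf library 3 (0.19; range from -0.54), and IER5 without C-Raf library 3 (0.021), C-Raf library 4 (0.037) or Bone4 (0.019; range from -0.076). Of 848 values of single genes under alternatives, 800 kept direction and call.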
